A study of Mus musculus with 9 samples.

Results

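Neat1 and Malat1 are long noncoding RNAs that stay in the nucleus, and they were taken from the gene table by name, as 2 of the 28998 genes in it and of the 11798 genes whose mean level over all libraries was at least 1 FPKM (fragments scaled to transcript length and sequencing depth). They were picked because both were higher with both drugs than in Control, so their comparisons with Control are a description here and carry no test. The libraries came from macrophages grown from bone marrow of wild-type C57 mice with GM-CSF, a growth factor that drives monocytes to this fate, over 7 days. Control, JHU083 and WGFT17 cells gave 3 libraries each, and the drugs were given for 36 h. JHU083 is known as a prodrug of the glutamine antagonist DON, and WGFT17 is a code name. Doses are not given, nor is what the Control cells received or for how long, so culture time and drug cannot be told apart in the comparisons with Control. Nothing says that the libraries of a group came from separate animals or cultures, and p-values then measure only the spread between these libraries. JHU083 replicate 3 stood with Control in its heart muscle (summed 103 FPKM) and photoreceptor transcripts (10.8 FPKM), and JHU083 replicate 1 in heart muscle transcripts (73.6 FPKM), so the differences of Neat1 and Malat1 are also given without each of these libraries.

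Neat1 is the RNA scaffold of paraspeckles, nuclear bodies that form around it and hold RNA-binding proteins such as NONO and SFPQ. The gene makes a short isoform with a poly(A) tail and a long isoform on which paraspeckles are built. Malat1 lies next to it and collects in nuclear speckles, bodies rich in splicing factors. The mature ends of the long Neat1 isoform and of Malat1 are cut by RNase P and carry no poly(A) tail. A genomically encoded A-rich tract there folds back on U-rich tracts into a triple helix that shields the RNA from decay. These libraries were made from RNA selected on oligo(dT). The values thus count what that selection carried through, and more RNA per cell, more cells rich in the RNA and better capture cannot be told apart in them.

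In GRCm38, the build whose coordinates the table mostly carries, Neat1 (ENSMUSG00000092274) lies at chr19:5824708-5845478 and Malat1 (ENSMUSG00000092341) at chr19:5795690-5802672, both on the minus strand, 22.0 kb apart. The longest annotated transcript is a single exon of 20771 bases for Neat1 and of 6983 bases for Malat1. Below are the tracts of the triple helix at both ends, which show what the RNAs share in sequence, and the end of the short Neat1 isoform, which shows where its poly(A) tail is added. They were read from GENCODE M21 transcripts, and T stands for U. Capitals mark a U-rich tract and the A-rich tract in the upper pair and the poly(A) signal in the last sequence.
Neat1, end of the long isoform, chr19:5824708-5824800, minus strand: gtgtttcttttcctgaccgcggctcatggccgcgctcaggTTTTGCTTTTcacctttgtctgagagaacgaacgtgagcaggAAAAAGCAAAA
Malat1, triple-helix tracts, chr19:5795972-5796067, minus strand: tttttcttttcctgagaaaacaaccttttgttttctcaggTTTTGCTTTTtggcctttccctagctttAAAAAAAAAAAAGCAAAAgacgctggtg
Neat1, end of the short isoform, chr19:5842307-5842366, minus strand: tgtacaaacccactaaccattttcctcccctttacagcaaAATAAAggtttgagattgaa

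The U-rich tract TTTTGCTTTT occurred once in each of the long transcripts. Its distance to the A-rich tract was 32 bases in Neat1 and 18 bases in Malat1. The A-rich tract is 11 bases long and closes the annotated Neat1 transcript, whereas that of Malat1 is 18 bases long and stands 292 bases before the annotated end. The short isoform, of 3004 bases and 2 exons, starts within 2 bases of the long one, and 17599 bases of the long transcript (84.7%) lie beyond its end. The deposited values do not separate the isoforms. Relative to Malat1 at 6983 bases, each library's Neat1 count and FPKM implied a length between 20761 and 20779 bases, that of the long transcript. The 1 value per library was thus scaled to that length, and how reads of the short isoform entered it is not given.

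Neat1 was lowest in Control, intermediate with JHU083 and highest with WGFT17. It stood at 9.25, 7.90 and 6.43 FPKM in the Control libraries, at 22.64, 20.45 and 20.05 FPKM with JHU083, and at 44.30, 39.23 and 54.37 FPKM with WGFT17. No library of 1 group reached the range of another. The estimated counts behind these levels were 13173, 12044 and 9990 in Control, 30196, 29326 and 26440 with JHU083, and 66779, 59784 and 79788 with WGFT17, where about 4 counts are taken as 1 read pair. The group means were 7.86 ± 1.41, 21.0 ± 1.39 and 46.0 ± 7.71 FPKM (SD, n = 3). By FPKM, Neat1 passed from the middle of the tested genes towards the top: 52.1% to 62.9% of them were at or below its level in the Control libraries, 81.6% to 83.5% with JHU083 and 91.0% to 93.8% with WGFT17.

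Malat1 kept the same order of groups. Its level was 10.94, 9.47 and 6.78 FPKM in Control, 24.05, 19.22 and 22.66 FPKM with JHU083, and 37.67, 34.66 and 46.92 FPKM with WGFT17. Again the ranges of the groups did not overlap. The shorter RNA gave fewer counts, 5240, 4852 and 3543 in Control, 10783, 9264 and 10046 with JHU083, and 19093, 17757 and 23147 with WGFT17. Means were 9.06 ± 2.11, 22.0 ± 2.49 and 39.8 ± 6.39 FPKM (SD, n = 3). Between 53.8% and 67.9% of tested genes lay at or below Malat1 in the Control libraries, and between 89.6% and 92.7% did with WGFT17.

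**Figure D1:**
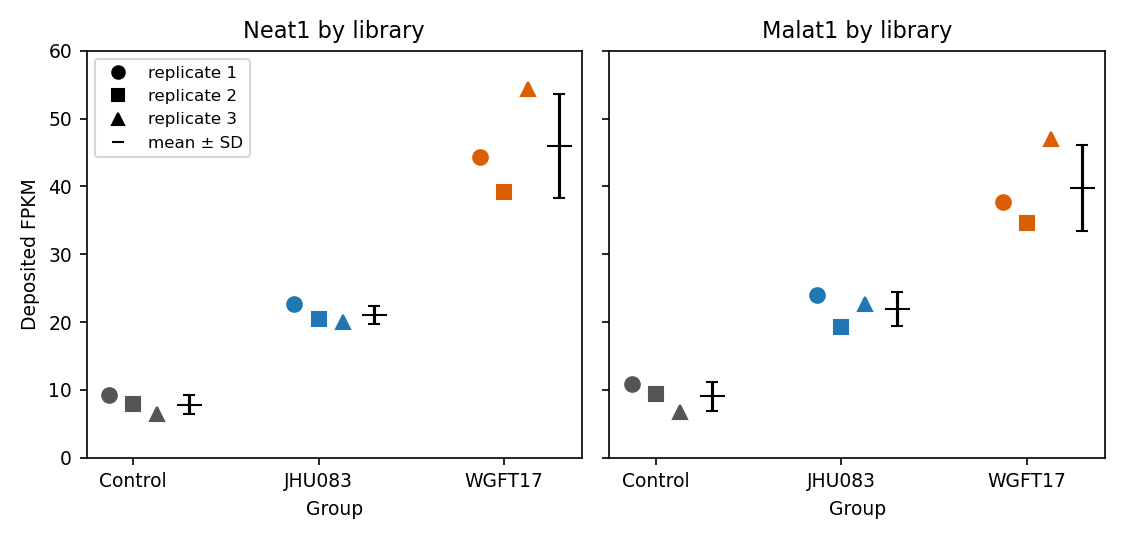
Deposited FPKM of Neat1 (left) and Malat1 (right) in each of the 9 libraries, by group, with a symbol for each replicate and the group mean ± SD beside it. Neat1 runs from 6.43 to 9.25 in Control, from 20.05 to 22.64 with JHU083 and from 39.23 to 54.37 with WGFT17, and Malat1 shows the same order without overlap.

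On the scale of the count model, which fits all 9 libraries together, Neat1 was higher with JHU083 than in Control by a log2 difference of 1.33 (SE 0.13), a 2.51-fold higher level. With WGFT17 the log2 difference from Control was 2.44 (SE 0.14), or 5.42-fold. Malat1 was 2.27-fold higher with JHU083 (log2 difference 1.18, SE 0.16) and 4.07-fold higher with WGFT17 (2.02, SE 0.16). Even the nearest libraries lay well apart. In FPKM, the lowest JHU083 library was 2.17-fold above the highest Control library for Neat1 and 1.76-fold for Malat1. With WGFT17 these gaps were 4.24-fold and 3.17-fold. Folds from Control ran larger in FPKM than in the count model. The FPKM group means stood 2.68-fold (JHU083) and 5.85-fold (WGFT17) above Control for Neat1, and 2.42-fold and 4.39-fold for Malat1. Among the log2 differences of all tested genes, from the largest rise down, Neat1 ranked 29 and Malat1 47 with JHU083, and 31 and 53 with WGFT17. For the background, 18.8% of tested genes had all JHU083 libraries above all Control libraries and 34.5% had all WGFT17 libraries above them. An adjusted p under 0.05 with a higher level was reached by 11.5% and 28.0% of tested genes, and the choice of Neat1 and Malat1 used these comparisons, which share the Control libraries. The balance of calls depends on the scaling: 47.7% of the genes called with JHU083 were higher, against 58.7% with library totals alone and 71.6% and 72.3% with limma on log2 FPKM (pseudocounts 1 and 0.1). With WGFT17 48.3% were higher, against 60.9% with limma and 66.7% with the trend on transcript length removed, and between the drugs 45.5%, against 66.7% with that trend removed.

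WGFT17 against JHU083 was not the contrast used to choose them, although it shares the treated libraries with that choice, and it was tested. Neat1 was 2.16-fold higher with WGFT17 (log2 difference 1.11, SE 0.13, adjusted p = 3.75e-05, edgeR quasi-likelihood test with Benjamini-Hochberg adjustment over all 11798 genes). Malat1 was 1.79-fold higher (log2 difference 0.84, SE 0.16, adjusted p = 0.00116 in the same edgeR fit). All 3 WGFT17 libraries exceeded all 3 JHU083 libraries in both genes, by at least 1.73-fold for Neat1 and 1.44-fold for Malat1 in FPKM. In this comparison 20.4% of tested genes were called higher and 26.0% had no overlap in that direction, so the call as such was common. The size was less so: Neat1 had a larger rise than 98.7% of tested genes, at rank 148, and Malat1 than 97.7%, at rank 271. Since doses are not given, the drugs are compared here only as they were used.

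Relative to Malat1, Neat1 was highest in the WGFT17 libraries. Neat1 FPKM divided by Malat1 FPKM was 0.846, 0.834 and 0.948 in the Control libraries and 0.941, 1.06 and 0.885 with JHU083, ranges that overlap. With WGFT17 it was 1.18, 1.13 and 1.16, above every other library. Its mean log2 ratio was 0.27 higher with WGFT17 than with JHU083 (two-sided exact permutation p = 0.1, the smallest that 3 against 3 libraries can give). Group means of the ratio were 0.876 ± 0.0629, 0.963 ± 0.0916 and 1.16 ± 0.0223 (SD, n = 3).

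**Figure D2:**
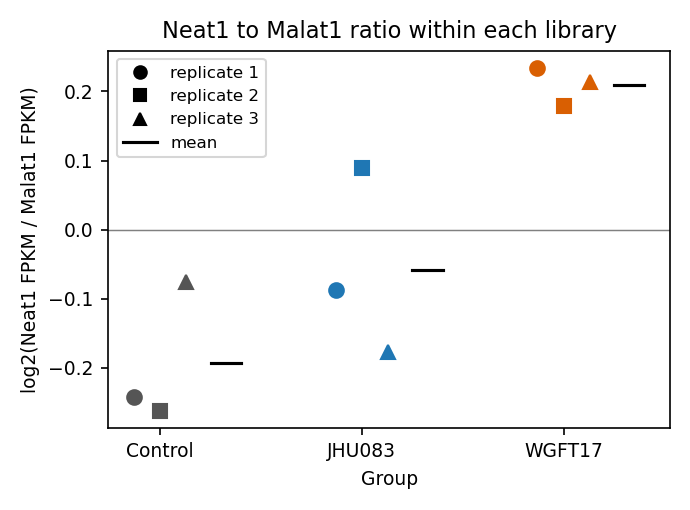
The log2 ratio of Neat1 to Malat1 FPKM within each library, by group, with a symbol for each replicate and a line at the group mean. The 3 WGFT17 libraries, with ratios of 1.13 to 1.18, lie above the 6 others, whose highest ratio is 1.06.

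Within Control and within WGFT17, the RNAs were highest in the same library and lowest in the same library. Control replicate 1 was the highest Control library for both and Control replicate 3 the lowest, with Neat1 at 0.25 above and 0.26 below the group mean of log2 counts scaled to library size and Malat1 at 0.30 above and 0.38 below. In WGFT17 the highest library was replicate 3 for both, 0.25 and 0.24 above the mean. The JHU083 libraries did not share an order beyond replicate 1, the highest for both: replicates 1 to 3 deviated by 0.10, -0.04 and -0.06 for Neat1 and by 0.13, -0.19 and 0.06 for Malat1. Over all 9 libraries, Pearson's r of these log2 scaled counts was 0.993, and after the group means were taken out it was 0.93; these are descriptions over libraries that share depth and preparation. The genes closest to Neat1 over the 9 libraries were Abcc5 (r = 0.995), a membrane transporter, Cdk13 (0.993), a kinase of transcribing RNA polymerase, Zfp758 (0.992), Mfsd6 (0.991) and Lrp12 (0.990). Those closest to Malat1 were Kdm6a (0.989), a histone demethylase, Chd2 (0.989), a chromatin remodeller, Abcc5 (0.989), Trim44 (0.986) and Paxbp1 (0.985). A likeness of this degree was not rare, since 723 genes reached r of 0.9 with Neat1 and 599 with Malat1. These 9 genes differed less from Control than Neat1 and Malat1 did: the log2 difference of Abcc5 between WGFT17 and Control was 0.57 and that of Cdk13 was 0.36, and the largest, that of Paxbp1, was 1.33. After the group means were taken out, 50 genes reached r of 0.9 with Neat1 and 51 with Malat1. Gpatch8 stood first for Malat1 (0.982) and next after Rad54l2 (0.973) for Neat1 (0.972). After Gpatch8, the genes closest to Malat1 were Cntrl (0.972), P2ry13 (0.964), Wdr60 (0.962) and Pnisr (0.959).

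Long transcripts as a class were higher in the treated libraries, and both RNAs are long. Over 11791 tested genes with a known length, Spearman's rho between the length of the longest transcript and the log2 difference was 0.384 for JHU083 against Control, 0.192 for WGFT17 against Control and -0.0191 for WGFT17 against JHU083. The median log2 difference of genes under 1 kb was -0.28 with JHU083 and -0.33 with WGFT17, while that of the 555 genes over 8 kb was 0.17 and 0.20. Neat1, in that longest class, ranked 1 with JHU083 and 3 with WGFT17, and the 95th percentile of the class stood at 0.51 and 0.74, below the 1.33 and 2.44 of Neat1. Among the 38 genes over 15 kb it ranked 1 in all 3 comparisons, and their median log2 differences were 0.21, 0.32 and 0.11. Malat1 belonged to the 1820 genes of 5 to 8 kb, whose median was 0.11 against Control for either drug, and it ranked 1 with JHU083 and 3 with WGFT17. Between the drugs the length classes hardly differed, with medians of -0.03 under 1 kb and 0.01 over 8 kb. There Neat1 ranked 4 in its class and Malat1 29.

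**Figure D3:**
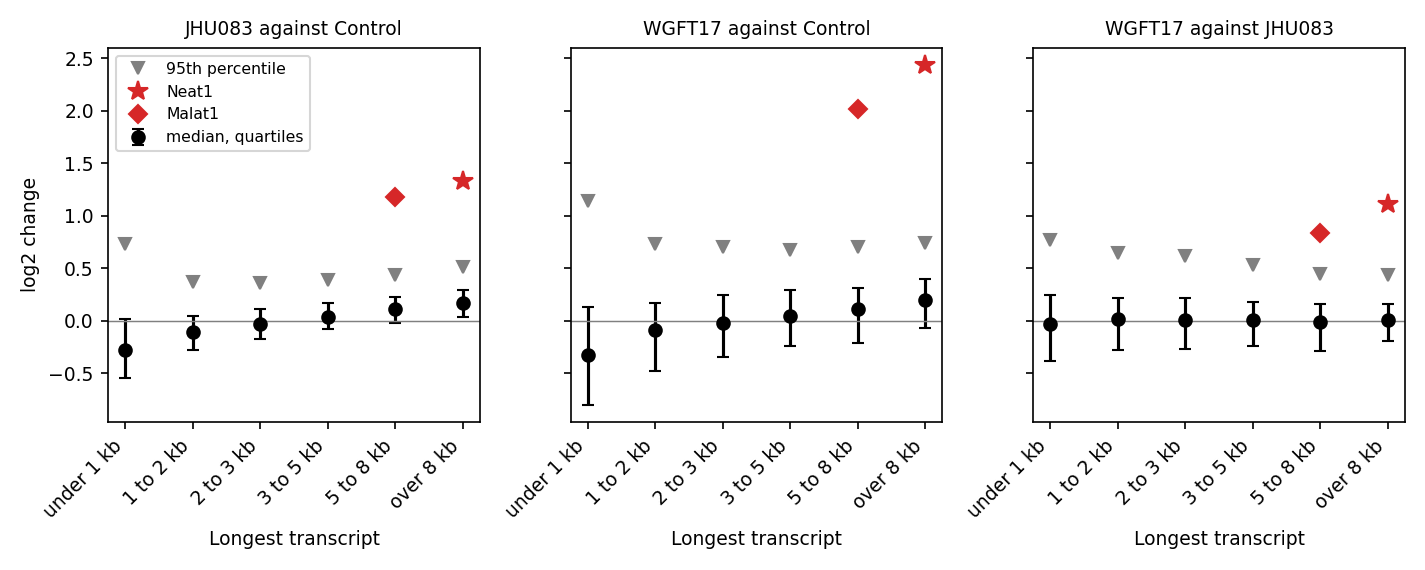
Log2 difference by length of the longest transcript for the 3 comparisons; black points with bars are the median and quartiles of tested genes in each length class, grey triangles the 95th percentile, the red star Neat1 and the red diamond Malat1. Medians climb from -0.28 to 0.17 with JHU083 and from -0.33 to 0.20 with WGFT17, stay near 0 between the drugs, and both RNAs lie above the 95th percentile of their class in each panel.

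Removing each library's smooth trend on transcript length left log2 differences of 1.14 (JHU083) and 2.30 (WGFT17) from Control for Neat1, and of 1.08 and 2.06 for Malat1. Between the drugs they became 1.16 for Neat1 (adjusted p = 7.94e-06 by edgeR) and 0.99 for Malat1 (adjusted p = 0.000151). With trends on length and GC content removed together, Neat1 gave 1.14, 2.29 and 1.15 in the same order and Malat1 gave 1.01, 1.95 and 0.94. Removing the length trend alone also raised other genes between the drugs. Srrm1 went from -0.22 to -0.07 and Pnn from -0.27 to -0.14, and the share of all calls that were higher grew, as given above. The level over all genes was not reset after this step, so the larger values between the drugs are not particular to Neat1 and Malat1. For WGFT17 against Control, the share of calls that were higher also grew, from 48.3% to 66.7%. The 2.30 and 2.06 given above for Neat1 and Malat1 thus include such a shift. With JHU083 this share went from 47.7% to 51.3%. In single libraries, the median deviation of genes over 8 kb from their mean over the 9 libraries, less that of genes under 1 kb, was -0.22, -0.37 and -0.42 in Control replicates 1 to 3, the same order of libraries as that of Neat1 and Malat1. In WGFT17 replicates 1 to 3 it was 0.17, 0.16 and 0.22, again the order of both RNAs. In JHU083 replicates 1 to 3 it was 0.12, 0.22 and 0.09, the order of neither. The ranges of the JHU083 and WGFT17 groups overlap in this trend, although those of Neat1 and Malat1 did not. The part of this trend in the spread among libraries of a group was not tested.

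No tested gene around the pair differed from Control upwards by as much as Neat1 or Malat1. Of the 84 genes in the table within 500 kb, 49 others were tested. With JHU083, 2 of the 49 rose and 8 fell against a background of 24.0% of all tested genes called in either direction, and their median log2 difference was -0.05 beside 0.00 over all tested genes. With WGFT17, 9 rose and 13 fell against a background of 58.0%, with a median of 0.05. Their highest log2 difference was 0.45 with JHU083 (Snx32) and 0.78 with WGFT17 (Gm5510), each below Malat1. Frmd8, the next tested gene on the Neat1 side, 4.2 kb away, read 15.01, 16.42 and 16.28 FPKM in Control, 18.40, 18.20 and 14.29 with JHU083, and 16.40, 17.94 and 17.77 with WGFT17. These ranges overlap, and its log2 differences from Control were 0.00 (adjusted p = 0.989, edgeR) and 0.02 (adjusted p = 0.87). Between the drugs 7 of the 49 were higher with WGFT17 and 8 lower, against a background of 44.7%, and the highest difference was 0.72 (Fosl1).

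**Figure D4:**
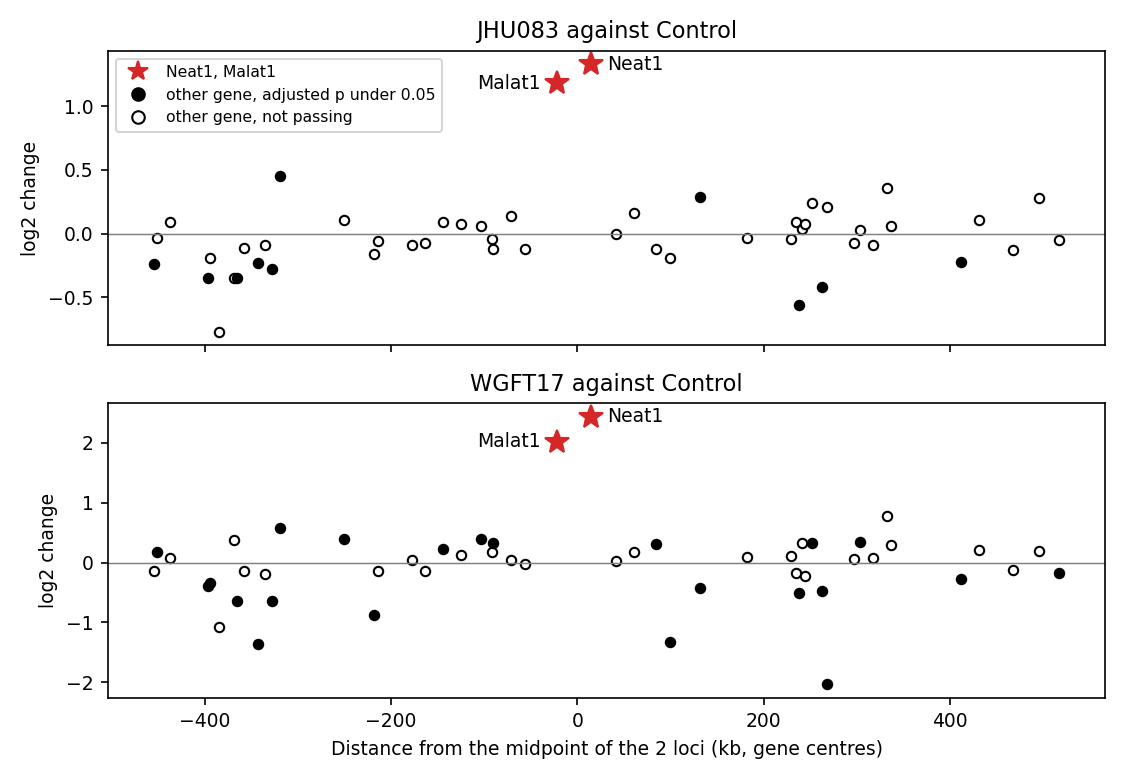
Log2 difference from Control of Neat1 and Malat1 (red stars) and of the 49 other tested genes within 500 kb, by distance of the gene centre from the midpoint of the pair, for JHU083 (upper) and WGFT17 (lower); filled points passed an adjusted p under 0.05. The pair stands above all neighbours, whose highest values are 0.45 and 0.78.

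Gm27505, a small RNA annotated inside Neat1 on the same strand at chr19:5844638-5844747, was looked at after its values were seen. It had 2, 1 and 2 estimated counts in Control, 5, 6 and 4 with JHU083 and 11, 8 and 15 with WGFT17. Its reads cannot be told apart from those of Neat1, and its order is that of its host. The other small RNAs annotated inside the pair, Gm27533 and Gm28006 in Neat1 and Gm27694 in Malat1, had 0 or 1 count in every library and no such order of counts. In FPKM, however, Gm27694 did have the order of groups of its host. It read 0.01, 0.01 and 0 FPKM in Control, 0.05, 0.02 and 0.04 with JHU083, and 0.06, 0.08 and 0.1 with WGFT17, all at the limit of detection. Frmd8os, the antisense gene just beyond the Neat1 start, had 0 to 4 counts in every library, so its level was at the limit of detection.

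The table of promoters made from RefSeq (GRCm38.p6) holds an entry for Malat1, shown here because Malat1 and its neighbour moved together. The 300 bases around its start, with matches to TGACG, the half-site of the cyclic AMP response element, in capitals on either strand (CGTCA is its reverse complement), read as follows.
Malat1 promoter, chr19:5802623-5802922, minus strand: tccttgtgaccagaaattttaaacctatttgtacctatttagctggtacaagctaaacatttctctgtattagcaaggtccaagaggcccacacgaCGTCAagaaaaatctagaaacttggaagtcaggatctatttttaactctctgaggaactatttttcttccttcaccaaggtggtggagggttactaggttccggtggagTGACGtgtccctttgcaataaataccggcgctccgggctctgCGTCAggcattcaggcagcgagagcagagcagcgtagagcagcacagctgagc

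The 3 matches begin at positions -154, -45 and -3 relative to the start, and 20.8% of 32851 promoters of this length hold at least 1. A search of both strands found none of 8 other patterns in this window. They were the CCAAT box, spelled CCAAT and present in 37.4% of promoters, the TATA box (TATAAA, 13.6%), the GC box (GGGCGG, 35.7%) and the E-box (CACGTG, 7.15%). The others were the AP-1 site (TGANTCA, 7.81%), the C/EBP site (TTGCNNAA, 10.8%), the C/EBP-ATF response element (TGATGNAA, 3.97%) and the heat shock element (GAANNTTC, 7.86%). A match is a description of letters and not a binding site.

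Messages of paraspeckle proteins gave calls in both directions. Of 35 tested, 5 rose and 3 fell with JHU083 (backgrounds 11.5% and 12.5%), and 8 rose and 12 fell with WGFT17 (backgrounds 28.0% and 30.0%), with medians of 0.02 and -0.01 beside 0.00 over all genes. The 8 calls with JHU083 were 2 with no minimum on FPKM or with 2 groups only, 4 with the length trend removed, 5 with the replicate block, 3 without Control replicate 2 or 3, and 5 without Control replicate 1 or JHU083 replicate 1 or 2. Nono, which encodes a core paraspeckle protein, read 55.08, 56.99 and 55.98 FPKM in Control, 49.84, 51.35 and 55.19 with JHU083, and 41.15, 39.07 and 41.26 with WGFT17. Every WGFT17 library was below every other, opposite to Neat1, and the log2 difference from Control was -0.58 (adjusted p = 2.92e-06, edgeR). Hnrnpa1 and Rbm3, both RNA-binding protein genes, also fell with WGFT17, by 0.64 and 0.54 on the log2 scale. Taf15, an RNA-binding protein gene, had the same order of groups as Neat1: it read 14.42, 16.35 and 13.60 FPKM in Control, 18.90, 19.09 and 17.10 with JHU083 and 26.86, 27.81 and 27.59 with WGFT17. Its log2 difference from Control was 0.22 with JHU083 (adjusted p = 0.0417) and 0.78 with WGFT17 (adjusted p = 2.6e-06, edgeR). The call with JHU083 was lost with no minimum on FPKM (adjusted p = 0.0834), with 2 groups only (0.0831), and without Control replicate 1 (0.11) or 3 (0.155) or JHU083 replicate 1 (0.104) or 2 (0.12). Sfpq, which encodes the partner of NONO, passed in neither comparison with Control, at 30.4 ± 1.13, 30.4 ± 1.77 and 35.4 ± 2.50 FPKM (SD, n = 3), and was added after its values were seen. Between the drugs, 3 paraspeckle messages were higher with WGFT17 and 12 lower (backgrounds 20.4% and 24.4%), with a median of -0.10.

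Nuclear speckle proteins are the company of Malat1. Of 32 messages, 8 rose and 1 fell with JHU083 (25% and 3.12%, backgrounds 11.5% and 12.5%), and 7 rose and 10 fell with WGFT17 (21.9% and 31.2%, near the backgrounds of 28.0% and 30.0%), with medians of 0.03 and 0.06. Without Control replicate 2 or 3, the 9 calls with JHU083 were 5. The kinase gene Clk1, whose product phosphorylates SR splicing factors, read 5.02, 4.14 and 3.63 FPKM in Control, 7.90, 7.63 and 8.95 with JHU083, and 7.48, 6.70 and 7.59 with WGFT17. Its log2 difference between WGFT17 and JHU083 was -0.18 (adjusted p = 0.188, edgeR), where that of Malat1 was 0.84. Its Control libraries stood in the same order as those of Neat1 and Malat1. Pnn, which encodes the speckle protein pinin, and Clk4 rose with JHU083 by 0.57 and 0.48 on the log2 scale and with WGFT17 by 0.30 and 0.35, where the call of Pnn was lost without Control replicate 3 (adjusted p = 0.0535) or WGFT17 replicate 3 (0.0605). Srrm1, which encodes a splicing coactivator, fell by 0.34 with WGFT17 (adjusted p = 0.000116, edgeR). Between the drugs, 3 of the 32 were higher with WGFT17 and 9 lower (9.38% and 28.1%, backgrounds 20.4% and 24.4%), with a median of -0.1.

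Of 23 messages of factors that form the ends of these RNAs or degrade nuclear RNA, 3 rose and 1 fell with JHU083 (13% and 4.35%, backgrounds 11.5% and 12.5%), and 5 rose and 4 fell with WGFT17 (21.7% and 17.4%, backgrounds 28.0% and 30.0%). Medians were -0.03 and 0.05. Between the drugs, none of the 23 was higher with WGFT17 and 2 were lower (8.7%, backgrounds 20.4% higher and 24.4% lower), with a median of 0.03. The 4 calls with JHU083 were 2 without Control replicate 2 or 3 or at a mean of at least 5 FPKM. With WGFT17 the 9 calls were 5 at that mean and 14 with length and GC trends removed. Zfc3h1, whose product links polyadenylated nuclear RNA to the exosome, rose by 0.82 with JHU083 and by 0.61 with WGFT17. Ythdc1, the nuclear reader of methylated adenosine, rose by 0.34 and 0.39, the former not passing once length and GC trends were removed (0.09, adjusted p = 0.362). Mettl3, the methyltransferase gene, rose with WGFT17 by 0.43, and Pop4, a subunit of RNase P, fell by 0.42 (-0.19, adjusted p = 0.0509, with length and GC trends removed). Xrn2, a nuclear exonuclease gene, was at 25.2 ± 0.692, 26.6 ± 0.350 and 26.7 ± 0.664 FPKM (SD, n = 3) and passed in neither comparison with Control. Cpsf6 and Nudt21 encode the cleavage factor that favours the poly(A) site of the short Neat1 isoform, and were named after their values were seen. Cpsf6 stood at 5.32 ± 0.0872, 6.40 ± 0.193 and 6.41 ± 0.376 FPKM, and Nudt21 at 6.71 ± 0.500, 7.24 ± 0.226 and 6.04 ± 0.301 (SD, n = 3). Cpsf6 rose with JHU083 by 0.17 (adjusted p = 0.0441, edgeR) and with WGFT17 by 0.16 (adjusted p = 0.028). Nudt21 fell with WGFT17 by 0.26 (adjusted p = 0.00997, edgeR) and was lower with WGFT17 than with JHU083 (-0.28, adjusted p = 0.00979). Hnrnpk, known to counter the poly(A) site of the short isoform, was at 65.0 ± 0.933, 66.2 ± 1.56 and 65.7 ± 2.99 FPKM and passed in no comparison.

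**Figure D5:**
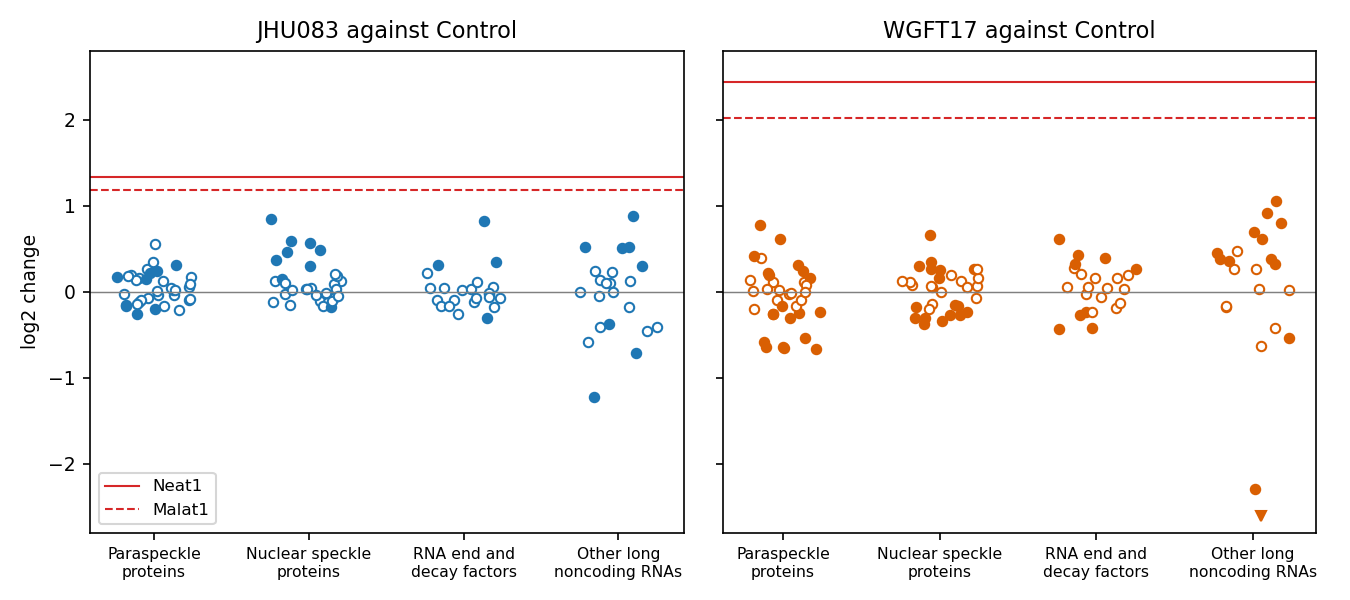
Log2 difference from Control of each tested gene in 4 lists, for JHU083 (left) and WGFT17 (right), filled where the adjusted p was under 0.05, with lines at Neat1 (solid) and Malat1 (dashed); the triangle at the lower edge is H19, at -5.91. No listed gene reaches either line, and the highest is Xist in both panels, at 0.88 and 1.05.

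Among other long noncoding RNAs with known functions, 49 of 56 were in the table and 22 were tested. With JHU083, 5 rose and 3 fell (22.7% and 13.6%, backgrounds 11.5% and 12.5%, median 0.05), and with WGFT17, 10 rose and 3 fell (45.5% and 13.6%, backgrounds 28.0% and 30.0%, median 0.30). The 8 calls with JHU083 were 5 with 2 groups only, with the replicate block or without JHU083 replicate 1, 4 without Control replicate 2 or 3 or JHU083 replicate 2, and 3 at a mean of at least 5 FPKM, where WGFT17 gave 5 calls. Xist, the nuclear RNA of X inactivation, had the largest rise of the list with both drugs. It read 29.38, 22.79 and 20.01 FPKM in Control, 42.48, 42.82 and 56.18 with JHU083 and 52.14, 48.75 and 60.61 with WGFT17. Its treated groups overlap, which those of Neat1 and Malat1 did not, and the log2 difference between the drugs was 0.17 (adjusted p = 0.363, edgeR). The Control libraries of Xist fell in the same order as those of Neat1. Between the drugs, 6 of the 22 were higher with WGFT17 and 2 lower (27.3% and 9.09%, backgrounds 20.4% and 24.4%), with a median of 0.17. Firre, a nuclear RNA that anchors chromosomal loci, was among the higher ones and stepped up as Neat1 and Malat1 did. It read 2.32, 2.08 and 1.9 FPKM in Control, 3.03, 3.22 and 3.31 with JHU083 and 4.14, 3.89 and 4.74 with WGFT17. Its log2 difference between the drugs was 0.40 (adjusted p = 0.00469, edgeR). H19, an imprinted RNA, fell by 5.91 with WGFT17, a size that rests on values near the floor. It read 3.58, 9.44 and 6.0 FPKM in Control and 0.17, 0.03 and 0.12 with WGFT17. Of 70 other tested genes typed as lincRNA alone, 1 had a larger log2 difference than Neat1 with JHU083 and none had with WGFT17 or between the drugs. Beside Malat1, 3, 1 and 2 of the 70 had a larger difference in the same order.

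Of 18 messages of transcription factors reported to act on Neat1, 4 rose and 3 fell with JHU083 (22.2% and 16.7%, backgrounds 11.5% and 12.5%), and 5 rose and 7 fell with WGFT17 (27.8% and 38.9%, backgrounds 28.0% and 30.0%). Medians were 0.02 and -0.03. The 7 calls with JHU083 were 4 with no minimum, with 2 groups only or without Control replicate 2, and 3 without Control replicate 3. Atf4, the factor of the amino acid stress response, was at 72.3 ± 3.54, 65.5 ± 0.763 and 137.0 ± 1.55 FPKM (SD, n = 3). It fell by 0.24 with JHU083, a call lost with the length trend removed (-0.14, adjusted p = 0.0642) or length and GC trends removed (-0.08, 0.337), and rose by 0.82 with WGFT17. Epas1, a hypoxia factor, fell by 1.44 with WGFT17, and Klf4 rose there by 1.00. The targets of p53, another reported activator, gave 2 rises and 7 falls of 24 with JHU083 (8.33% and 29.2%, backgrounds 11.5% and 12.5%) and 7 rises and 11 falls with WGFT17 (29.2% and 45.8%, backgrounds 28.0% and 30.0%). Medians were -0.13 and -0.11. At a mean of at least 5 FPKM the 9 and 18 calls were 5 and 11. Cdkn1a, the classic p53 target, fell by 0.31 with JHU083 and was at 64.5 ± 3.08 in Control and 64.9 ± 1.73 FPKM with WGFT17 (SD, n = 3).

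Library totals lay between 56624220 and 69112134 estimated counts. All 12 macrophage markers were above 1 FPKM on average in every group, and their summed level was 11300 to 12200 FPKM in Control, 11900 to 13300 with JHU083 and 11800 to 13100 with WGFT17. Of the 12, 1 rose and 3 fell with JHU083 (8.33% and 25%, backgrounds 11.5% and 12.5%). With WGFT17, 3 rose and 5 fell (25% and 41.7%, backgrounds 28.0% and 30.0%). Between the drugs, 3 were higher with WGFT17 and 6 lower (25% and 50%, backgrounds 20.4% and 24.4%). The 15 stromal markers summed to 2560 to 2750, 1670 to 2070 and 360 to 397 FPKM, the opposite order of groups to that of Neat1 and Malat1, with none at 0 in a whole group. Neutrophil markers (10) summed to 38.6 to 47.8, 9.74 to 12 and 1.28 to 2.44 FPKM, with Ly6g, Ltf and Elane at 0 in all WGFT17 libraries and Ly6g at 0 in Control. Lymphocyte markers (10) summed to 33.9 to 35.3, 23.9 to 27.3 and 10.9 to 11.9 FPKM, with Ms4a1 at 0 in all WGFT17 libraries. The part of these cells in the levels of Neat1 and Malat1 was not tested. Heart muscle markers (10) ranged from 0.22 to 103 FPKM among JHU083 libraries, beside 87.4 to 94.5 in Control and 0.10 to 0.14 with WGFT17, where Myh6, Myl2, Myl7, Actc1, Mb and Ryr2 were at 0. Photoreceptor markers (9) likewise ranged from 3.06 to 10.8 with JHU083, beside 9.72 to 11.4 and 1.78 to 2.26. Without JHU083 replicate 3, where Neat1 and Malat1 did not stand apart, their log2 differences between JHU083 and Control were 1.35 and 1.16, and between WGFT17 and JHU083 1.08 and 0.87. Without JHU083 replicate 1 they were 1.27 and 1.12, and 1.17 and 0.91. Liver markers (10) summed to 427 to 479, 75.5 to 241 and 105 to 235 FPKM. Mitochondrial transcripts made up 2.52% to 2.56% of counts in Control, 2.1% to 2.96% with JHU083 and 1.56% to 1.73% with WGFT17.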

How the data were processed

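Stranded libraries of oligo(dT)-selected RNA from 9 samples, 3 per group, were read as pairs. Tools listed in the submitters' processing notes are DESeq2, edgeR, StringTie 2.1.6, HISAT2 2.2.1 and cutadapt 1.9, with no roles, and the build is mm9. The coordinates in the table equal GRCm38 (GENCODE M21) for 25194 of 28926 matched genes (87.1%), so GRCm38 is used. Per the file headers, the deposited table gives FPKM, which the authors scaled to length and depth. The expected count of each gene, here called estimated count, was deposited by the authors as a whole number that is not scaled to depth. About 4 of them were taken to stand for 1 read pair, a set value. How the estimated count was made is not given in the sources used here.

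Tests covered genes averaging 1 FPKM or more and used the quasi-likelihood method of edgeR 4.0.16 on these counts (TMM factors, 9 libraries in 1 fit, R 4.3.3), adjusted by Benjamini-Hochberg within a comparison at 0.05. The biological coefficient of variation was 0.122. Means and SDs are of FPKM. Counting noise is small at these counts, so the number of libraries limits precision. Length is that of the longest transcript, and trends were removed by loess (span 0.3). Alternatives were limma 3.58.1 on log2 FPKM (pseudocount 1 or 0.1), DESeq2 1.42.0, other scalings and filters, fits of 2 groups, a replicate block and leaving out each library. The exact permutation test used scipy 1.17.1.

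Genes and lists were chosen with earlier results of these data known. The rule for named genes takes, of each list, the called members of smallest adjusted p against Control, at most 4 with WGFT17 and 3 with JHU083, 2 of the highest level that did not pass, the tested genes near the pair, and the 5 of highest r with each RNA, provisional symbols left out. Part of these are printed, and results of some genes are withheld and not reported here, though counts include them. Sfpq, Cpsf6, Nudt21, Gm27505, Gm27533, Gm28006, Gm27694, Frmd8os and the genes of high r within groups were added after their values were seen. Replicate numbers did not pair the samples: r of same-numbered deviations was -0.034 to 0.161, with 1 of 9 over 0.1.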

Additional observations from a re-analysis of the deposited data

How the results depend on the processing

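All 19 alternatives of each of the 6 log2 differences of Neat1 and Malat1 kept their direction. Between the drugs, the adjusted p ran from 2.08e-10 to 0.000211 for Neat1 and from 0.00012 to 0.00587 for Malat1. Leaving out 1 library gave log2 differences of 1.21 to 1.46, 2.30 to 2.57 and 0.98 to 1.21 for Neat1 (JHU083 against Control, WGFT17 against Control, between the drugs), and 1.02 to 1.34, 1.86 to 2.18 and 0.71 to 0.93 for Malat1. With the replicate number as a block, though numbers do not pair the samples, Neat1 gave 1.33, 2.44 and 1.11 (adjusted p = 0.000137 between the drugs, edgeR) and Malat1 1.18, 2.03 and 0.85 (adjusted p = 0.00227), and 2330, 6530 and 4907 genes were called.

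Counts around them moved more, and the cause was not tested where fewer genes or samples do not give it. For JHU083 against Control, leaving out 1 library gave 1534 (without Control replicate 2; 1568 without Control replicate 3) to 3731 called genes, beside 2831, 23 (without Control replicate 3; 24 without Control replicate 2) to 52 in the lists, and 4 (without Control replicate 2; 5 without Control replicate 3) to 17 (without JHU083 replicate 3) near the pair. The lists had 29 calls with no minimum and 28 with 2 groups only, and 6 genes near the pair were called at a mean FPKM of at least 5. With no minimum, rho on length was 0.09 for JHU083 and 0.018 for WGFT17. At a mean of at least 5 FPKM, 4151 genes were called for WGFT17 against Control and 3305 between the drugs. Near the pair, WGFT17 against Control gave 35 calls with 2 groups only and 34 with length and GC trends removed, and WGFT17 against JHU083 gave 28. Removing the length trend turned Xrn2 to 0.11 (WGFT17 against Control) and 0.13 (between the drugs), Bax to 0.16 (WGFT17 against Control) and Caprin1 to 0.14 (between the drugs). With GC as well, Caprin1 was -0.16 (JHU083 against Control), and Tug1 -0.13, Bax 0.14 and Cdkn1a 0.20 (WGFT17 against Control).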
